A study of Mus musculus with 12 samples.

Results

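The genes described here mark nerve in the embryonic palate: 25 neuronal genes and 7 genes of glia, the Schwann cell lineage that ensheathes peripheral axons. They were taken by symbol from a list drawn up with earlier results of these data known, and all 32 were among the 24391 gene symbols in the count tables. Every library came from the palatal shelves, from which the roof of the mouth forms, of E13.5 embryos of the mouse strain C57BL/6. The 4 groups were anterior palate after tamoxifen, anterior palate of controls, posterior palate after tamoxifen and posterior palate of controls, with 3 libraries each. Tamoxifen acts on oestrogen receptors as an agonist or an antagonist depending on the tissue, and the series title ties it to cleft palate. The sources used here do not give its dose, route and time or what the controls received, and the labels name no transgene or Cre line.

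Sensory fibres reach the palate from the trigeminal ganglion through the palatine and nasopalatine nerves, and autonomic fibres come through the pterygopalatine ganglion. Schwann cell precursors, which descend from the neural crest, travel along these fibres and depend on axonal neuregulin, read by the receptor pair ERBB2 and ERBB3. The cell bodies of these fibres, which hold most neuronal RNA, lie in the ganglia and not in the shelf. In bulk tissue such as this, fewer cells of a type and less RNA per cell cannot be told apart.

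Levels are CPM, counts brought to a common library size, scaled with TMM, which sets the bulk of genes equal between libraries. A gene was called where edgeR's quasi-likelihood test gave a p under 0.05 after Benjamini-Hochberg adjustment over the 15958 genes that passed the expression filter. All 32 nerve genes passed that filter. Anterior tamoxifen library 1 had a total count of 73.0 M, and the others 39.4 M to 50.2 M. Fold changes under tamoxifen tracked transcript length across the 15844 tested genes with a known length, with a Spearman correlation of 0.54 in anterior and 0.48 in posterior palate. Many fold changes are therefore also given after a trend with transcript length and GC content was removed from each library. This is called the trend-removed value below. Some genes are given only as counted. Whether that trend is technical was not tested.

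Of the 32 genes, 20 had a promoter in the RefSeq table of build GRCm38.p6, which counts 250 bases before to 50 bases after the transcription start. The promoters of Dcx, Map2, Syt1 and Ntrk2 are shown because these 4 neuronal genes were higher after tamoxifen in both parts of the palate as counted (values below). The promoter of Nefl, the other such gene, is not shown. The Dcx window lies at chrX:143933170-143933469 on the minus strand, Map2 at chr1:66175079-66175378 on the plus strand, Syt1 at chr10:109010926-109011225 on the minus strand and Ntrk2 at chr13:58806319-58806618 on the plus strand. Capitals mark the letters TATAAA, the only one of the motifs searched that these windows held. Whether they act as a TATA box was not tested.
Dcx: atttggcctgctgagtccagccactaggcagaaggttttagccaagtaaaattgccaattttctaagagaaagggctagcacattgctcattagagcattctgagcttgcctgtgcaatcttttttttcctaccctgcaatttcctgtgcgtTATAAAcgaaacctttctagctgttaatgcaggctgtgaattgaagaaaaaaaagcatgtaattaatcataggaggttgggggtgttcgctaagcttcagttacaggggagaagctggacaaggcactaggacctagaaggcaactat
Map2: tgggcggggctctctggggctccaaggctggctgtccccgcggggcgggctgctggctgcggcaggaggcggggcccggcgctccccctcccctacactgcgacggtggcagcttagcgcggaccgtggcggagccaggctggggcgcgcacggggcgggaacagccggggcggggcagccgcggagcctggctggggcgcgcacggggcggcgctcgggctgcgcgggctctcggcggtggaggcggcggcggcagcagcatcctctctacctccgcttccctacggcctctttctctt
Syt1: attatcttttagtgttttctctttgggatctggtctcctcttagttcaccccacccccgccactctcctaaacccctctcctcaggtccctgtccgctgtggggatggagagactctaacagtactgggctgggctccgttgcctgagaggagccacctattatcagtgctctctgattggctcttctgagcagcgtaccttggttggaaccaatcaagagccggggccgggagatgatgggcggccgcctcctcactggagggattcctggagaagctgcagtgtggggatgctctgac
Ntrk2: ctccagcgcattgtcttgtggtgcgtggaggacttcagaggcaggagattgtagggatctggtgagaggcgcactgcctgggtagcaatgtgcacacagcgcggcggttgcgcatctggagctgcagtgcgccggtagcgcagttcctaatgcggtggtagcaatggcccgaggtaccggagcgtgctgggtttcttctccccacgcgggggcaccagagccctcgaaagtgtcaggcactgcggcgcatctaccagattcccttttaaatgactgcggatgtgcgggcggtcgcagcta
Only the Dcx window of these 4 held TATAAA, which 13.6% of all 32851 mouse promoters of the same length held on one strand or the other. The Map2 window had 77.7% G and C, against 43.0% in Dcx, 56.7% in Syt1 and 61.3% in Ntrk2. The palindromic oestrogen response element GGTCANNNTGACC was in 0.07% of all promoters and in 0 of the 31 promoters of nerve genes. Its shorter arm GGTCA, counted on both strands and contained in the longer motif, was in 40.5% of all promoters. Of the 31 promoters of nerve genes 12 held it, from 7 of the 20 genes. The E-box letters CAGCTG were in 16.3% of all promoters and in 9 of the 31, from 6 of the 20 genes. The start used in the palate was not measured, and Dcx and Syt1 each have 2 starts in the table. Syt1 is among the genes with GGTCA and CAGCTG through its promoter not shown.

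Levels per kilobase of the longest transcript put Gap43, a growth cone protein, far above the other nerve genes with 51.8 CPM per kb over all 12 libraries. The neuronal tubulin Tubb3 followed with 17.3 CPM per kb, and Sox10, a transcription factor of neural crest and Schwann cells, with 9.46 CPM per kb. Erbb3 had 5.94, Map2 4.87 and Foxd3 4.84 CPM per kb. At the low end stood Snap25, a synaptic fusion protein, with 0.165 CPM per kb, the heavy neurofilament Nefh with 0.126 and Pou4f1, a transcription factor of sensory neurons, with 0.0867. Gap43, Ntrk2, Tubb3 and Map2 together made up 48.3 to 68.2% of the summed neuronal CPM in a library. Ntrk2 and Gap43 are also known from cells other than neurons.

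Several markers of nerve cell bodies were at or near 0. Neurog1 and Neurod1, which drive sensory neuron formation, had 0 counts in all 12 libraries, and Chat, the enzyme that makes acetylcholine, had 0 to 8 counts. Of 20 genes of sensory neurons in the count tables only 11 passed the filter, and of 15 autonomic genes 13 passed. The central nervous system marker Sox1 had 0 to 6 counts. Tyr, the pigment cell enzyme, had 0 to 2 counts, while the Schwann lineage factor Sox10, which pigment cell precursors share, had 22.3 to 29.5 CPM.

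As counted, Erbb3, Cdh19 and Mbp were higher after tamoxifen in both parts of the palate. The transcription factors Sox10 and Foxd3 were lower anteriorly as counted. With the length and GC trend removed, anterior Sox10 was instead called as higher, and anterior Mbp and Foxd3 were not called. The anterior calls of Mbp, Sox10 and Foxd3 as counted were also lost when certain single libraries were left out (values below). In anterior palate 3 of 7 glial genes rose and 2 fell after tamoxifen, where 25.6% of all genes tested rose and 24.0% fell (49.7% called in all). In posterior palate 4 of 7 rose and 0 fell, where 17.3% of all genes rose and 11.7% fell (29.0% called in all). The summed glial level was 93.75, 82.05 and 89.46 CPM in anterior tamoxifen libraries, against 71.46, 81 and 76.53 CPM in anterior controls. Posteriorly it was 122.3, 116.3 and 116.5 CPM after tamoxifen, against 80.35, 77.33 and 83.59 CPM in controls. In both parts each tamoxifen library was above each control library. This sum is dominated by Erbb3 and Sox10. Anteriorly Erbb3 averaged 37.5 CPM after tamoxifen and 19.7 CPM in controls, while Sox10 averaged 23.7 and 28.4 CPM. The anterior sum thus does not show a rise of the glial genes as a set. Their median log2 fold change was -0.26 anteriorly, with 3 of 7 values above 0, and 0.46 posteriorly, with 6 of 7 above 0. Over all genes the medians were -0.02 and 0.02.

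Erbb3, the neuregulin receptor that Schwann cell precursors need to survive, also acts in some epithelia. It had 43.0, 34.9 and 34.7 CPM in anterior tamoxifen libraries, against 20.01, 24.6 and 14.4 CPM in anterior controls. In posterior palate it had 58.2, 54.4 and 54.7 CPM after tamoxifen, against 27.5, 29.9 and 32.4 CPM in controls. The groups did not overlap in either part. The log2 fold change was 0.93 (SE 0.15, adjusted p = 0.000101) anteriorly and 0.90 (SE 0.14, adjusted p = 0.000699) posteriorly, which corresponds to 1.91-fold and 1.86-fold. With the length and GC trend removed it was 0.64 and 0.69, called in both parts. Trend-removed calls among the 7 glial genes were 3 higher and 0 lower anteriorly, where 16.1% of all genes were higher and 16.5% lower, and 5 higher and 0 lower posteriorly, where 7.78% were higher and 10.2% lower.

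Cdh19, a cadherin of Schwann cell precursors, was low throughout. It had 1.28, 2.04 and 1.73 CPM in anterior tamoxifen libraries and 0.694, 0.774 and 0.843 CPM in anterior controls. Posteriorly it had 2.62, 1.83 and 1.83 CPM after tamoxifen and 0.820, 1.29 and 0.953 CPM in controls. Again no tamoxifen library reached down to a control. The log2 fold changes were 1.11 (SE 0.28, adjusted p = 0.00327) and 1.04 (SE 0.27, adjusted p = 0.00953), and trend-removed 0.78 and 0.84, both called. Posteriorly the adjusted p was 0.050 to 0.058 without control library 1 or tamoxifen library 1.

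Mbp encodes myelin basic protein, and its locus also gives golli transcripts outside myelinating glia. Its level was 13.4, 11.03 and 13.3 CPM in anterior tamoxifen libraries and 7.58, 10.8 and 10.3 CPM in anterior controls. Posteriorly it was 13.7, 11.06 and 12.2 CPM after tamoxifen and 7.47, 7.88 and 8.77 CPM in controls. The anterior groups nearly touched, while the posterior ones were well apart. The log2 fold change was 0.40 (SE 0.14, adjusted p = 0.0275) anteriorly and 0.61 (SE 0.14, adjusted p = 0.00532) posteriorly. The trend-removed anterior value of 0.21 was no longer called, and neither was the anterior one without control library 1 or tamoxifen library 1 or 3 (adjusted p 0.08 to 0.13). The trend-removed posterior value was 0.48.

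As counted, Sox10 moved in opposite directions in the parts. It had 22.9, 23.1 and 25.1 CPM in anterior tamoxifen libraries, against 27.6, 28.2 and 29.5 CPM in anterior controls. In posterior palate it had 28.5, 29.2 and 29.2 CPM after tamoxifen, against 26.9, 22.3 and 23.2 CPM in controls. Every anterior tamoxifen library was below every control there, and every posterior tamoxifen library above. On the log2 scale the change was -0.26 (SE 0.08, adjusted p = 0.017) anteriorly and 0.26 (SE 0.08, adjusted p = 0.0302) posteriorly. With the length and GC trend removed, the anterior value changed sign to 0.29 and was called as higher, and the posterior one was 0.52. The anterior call was lost without control library 3 or tamoxifen library 1 (adjusted p 0.053 to 0.068), and the posterior one without any of 7 libraries (adjusted p 0.051 to 0.11): anterior control 2, anterior tamoxifen 1, posterior controls 2 and 3, and posterior tamoxifen 1, 2 and 3.

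Foxd3, a transcription factor that keeps neural crest cells undifferentiated, had 9.31, 8.10 and 10.4 CPM in anterior tamoxifen libraries, against 11.1, 12.02 and 16.3 CPM in anterior controls. Posteriorly it had 10.96, 12.97 and 11.6 CPM after tamoxifen, against 11.8, 9.29 and 11.2 CPM in controls. The groups were apart anteriorly and overlapped posteriorly. The anterior log2 fold change was -0.51 (SE 0.15, adjusted p = 0.010) and the posterior one 0.14, not called. The trend-removed values were 0.18, not called, and 0.45, called. Without anterior control library 3, which held the 16.3 CPM, the anterior value was -0.32 (adjusted p = 0.083).

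The remaining glial genes were not called under tamoxifen. Fabp7, a fatty acid binding protein of glial precursors, had 3.00, 2.35 and 2.88 CPM in anterior tamoxifen libraries and 3.29, 3.53 and 3.33 CPM in anterior controls. Posteriorly it had 6.04, 4.02 and 4.80 CPM after tamoxifen and 2.67, 4.37 and 3.77 CPM in controls. Its log2 fold changes were -0.30 (adjusted p = 0.242) and 0.46 (adjusted p = 0.0922). S100b, a calcium-binding protein of glia and cartilage, had 0.929, 0.492 and 1.33 CPM in anterior tamoxifen libraries and 1.16, 1.06 and 1.83 CPM in anterior controls. In posterior palate S100b had 2.34, 2.81 and 2.10 CPM after tamoxifen and 3.26, 2.29 and 3.30 CPM in controls, so the groups overlapped in both parts.

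**Figure D1:**
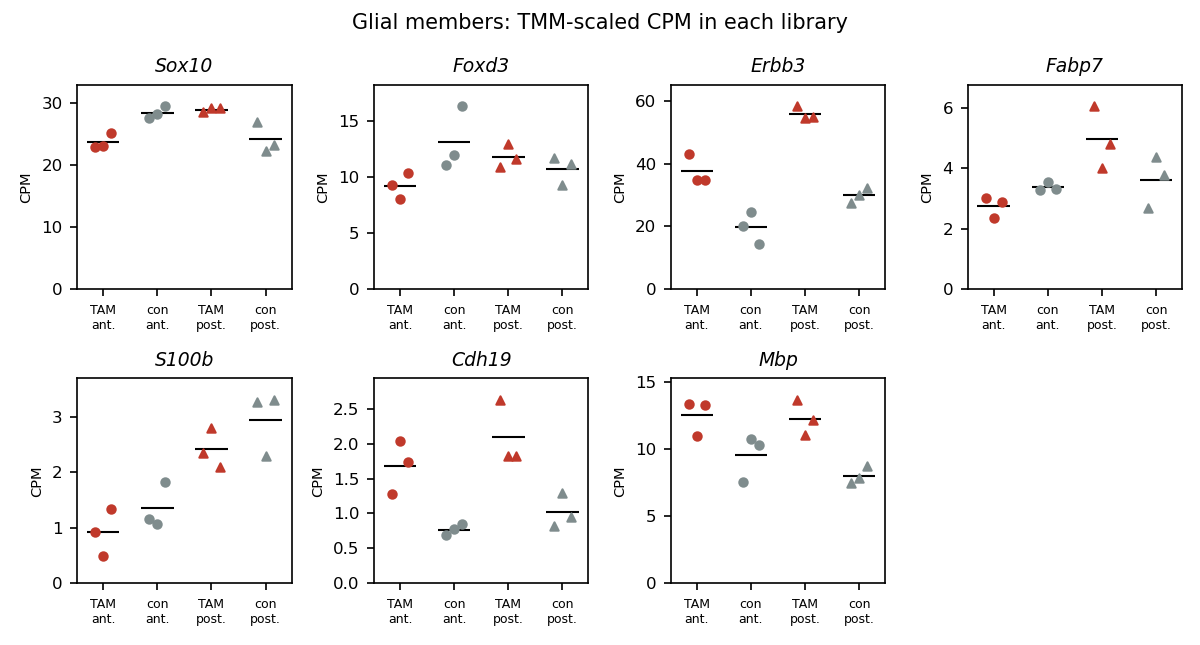
TMM-scaled CPM of the 7 glial genes in each of the 12 libraries; red marks tamoxifen and grey controls, circles anterior and triangles posterior palate, and the line is the mean of 3 libraries. Erbb3 and Cdh19 lie higher after tamoxifen in both parts without overlap, while Sox10 lies lower anteriorly and higher posteriorly.

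A wider list of 16 Schwann cell genes had calls in both directions. Anteriorly 3 rose and 3 fell with a median log2 fold change of -0.09, and posteriorly 1 rose and 0 fell with a median of 0.27. The number that rose was below the share of all genes in both parts, 25.6% and 17.3%. The medians over all genes tested were -0.02 and 0.02. With the trend removed 1 rose and 1 fell anteriorly, beside 16.1% and 16.5% of all genes. Posteriorly 1 rose and 0 fell, beside 7.78% and 10.2%. Moxd1, a monooxygenase-like protein of the neural crest lineage, was called in both parts. It averaged 12.9 ± 0.62 CPM after tamoxifen and 10.1 ± 0.432 CPM in controls anteriorly (SD, n = 3 each). Posteriorly Moxd1 averaged 27.0 ± 3.34 CPM after tamoxifen and 19.3 ± 1.20 CPM in controls (SD, n = 3 each). Egfl8 (-0.81), Pou3f1 (-0.79), a factor of promyelinating Schwann cells, and the neurotrophin receptor Ngfr (-0.34) fell anteriorly on the log2 scale, and none of these 3 was called with the trend removed. By region 2 of the 16 were higher and 6 lower anteriorly after tamoxifen, beside 7.60% and 10.2% of all genes. In controls 5 were higher and 5 lower, beside 10.2% and 13.1%.

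As counted, more neuronal genes were called higher than lower after tamoxifen, but anteriorly the number that rose was near the share of all genes. In anterior palate 7 of 25 rose and 0 fell (25.6% and 24.0% of all genes), with a median log2 fold change of 0.25 beside -0.02 over all genes. In posterior palate 6 rose and 1 fell (17.3% and 11.7% of all genes), with a median of 0.32 beside 0.02. After the trend was removed, 3 rose and 2 fell anteriorly, beside 16.1% and 16.5% of all genes (32.6% in either direction). Posteriorly 2 rose and 1 fell, beside 7.78% and 10.2% (18.0% in either direction). The numbers that rose were thus not clearly above the share of all genes in either part. The genes that rose in both parts were Nefl, Dcx, Map2, Syt1 and Ntrk2. With the trend removed, 0 neuronal genes were higher in both parts, against 3 glial genes, Sox10, Erbb3 and Cdh19. Several of the genes that rose have long transcripts, such as Dcx with 9074 bases and Ntrk2 with 8744 bases.

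Dcx encodes a microtubule protein of migrating young neurons. It had 26.2, 23.5 and 21.3 CPM in anterior tamoxifen libraries, against 10.4, 12.5 and 9.11 CPM in anterior controls. Posteriorly it had 30.1, 24.4 and 19.3 CPM after tamoxifen, against 13.8, 14.99 and 13.3 CPM in controls. The lowest tamoxifen library in each part was above the highest control. Its log2 fold change was 1.15 (SE 0.15, adjusted p = 1.79e-05) anteriorly and 0.81 (SE 0.15, adjusted p = 0.00132) posteriorly. The trend-removed values were smaller, 0.41, still called, and 0.35, not called, and below those of Syt1 (0.71 and 0.46).

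Map2, a microtubule protein of dendrites, had 33.0, 40.8 and 32.6 CPM in anterior tamoxifen libraries, against 24.7, 22.9 and 18.4 CPM in anterior controls. Posteriorly it had 37.2, 35.5 and 36.4 CPM after tamoxifen, against 25.5, 28.8 and 29.9 CPM in controls. There was no overlap in either part. The log2 fold change of 0.69 anteriorly (SE 0.11, adjusted p = 0.000129) and of 0.37 posteriorly (SE 0.11, adjusted p = 0.0207) shrank to 0.23 and 0.08 with the trend removed, neither called. Without posterior control library 1 or posterior tamoxifen library 1 the posterior adjusted p was 0.073 to 0.099.

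The synaptic vesicle genes differed among themselves. Syt1, the calcium sensor of vesicle release, had 3.68, 2.80 and 4.04 CPM in anterior tamoxifen libraries, against 2.06, 1.64 and 1.29 CPM in anterior controls. Posteriorly Syt1 had 4.77, 4.47 and 4.53 CPM after tamoxifen, against 2.94, 2.58 and 2.92 CPM in controls. Both parts showed a full separation, with log2 fold changes of 1.08 (SE 0.20, adjusted p = 0.000337) and 0.70 (SE 0.19, adjusted p = 0.0123). The trend-removed values were 0.71, called, and 0.46, not called. Syp, the vesicle membrane protein synaptophysin, overlapped between groups in both parts. It had 3.23, 1.70 and 3.22 CPM in anterior tamoxifen libraries and 2.50, 3.22 and 2.58 CPM in anterior controls. Posterior Syp was 4.53, 4.95 and 4.46 CPM after tamoxifen and 4.65, 4.15 and 4.27 CPM in controls. Snap25 stayed between 0.336 and 1.18 CPM in all libraries.

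Neurofilaments give large axons their calibre, and of their genes Nefl was called in both parts, Nefm in anterior palate and Nefh in neither. Nefl had 10.99, 8.28 and 8.87 CPM in anterior tamoxifen libraries, against 6.84, 8.66 and 6.25 CPM in anterior controls. In posterior palate Nefl had 29.9, 22.9 and 26.6 CPM after tamoxifen, against 17.2, 17.9 and 18.8 CPM in controls. One anterior control lay within the tamoxifen range, and the posterior groups were apart. For Nefl the log2 change was 0.38 (SE 0.14, adjusted p = 0.0357) and 0.56 (SE 0.13, adjusted p = 0.00661). The anterior call was lost with the trend removed (0.33) and without control library 1 or 3 or tamoxifen library 1 (adjusted p 0.096 to 0.20).

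Nefm, the medium neurofilament, had 8.15, 5.69 and 6.19 CPM in anterior tamoxifen libraries, against 5.45, 4.72 and 5.36 CPM in anterior controls. Posteriorly Nefm had 26.7, 22.0 and 22.2 CPM after tamoxifen, against 20.7, 22.8 and 19.9 CPM in controls. It rose anteriorly (0.38, SE 0.14, adjusted p = 0.0342; trend-removed 0.67) and was not called posteriorly (0.16, adjusted p = 0.355). The anterior call did not hold without control library 2 or 3 or tamoxifen library 1 (adjusted p 0.057 to 0.25). Exons of Nefl and Nefm overlap on opposite strands by 1108 bases in the GENCODE annotation, and the strand setting of the counting is not given, so reads from the shared stretch may count for either. Nefh stayed between 0.266 and 0.710 CPM.

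RNA-binding Hu proteins and adhesion molecules gave isolated calls. Elavl2, a neuronal Hu protein, had 3.57, 4.68 and 3.68 CPM in anterior tamoxifen libraries, against 1.36, 2.78 and 2.29 CPM in anterior controls. Posterior Elavl2 was 7.17, 5.08 and 5.15 CPM after tamoxifen, against 4.12, 3.46 and 3.94 CPM in controls. It did not overlap in either part, and its log2 fold change of 0.88 (SE 0.23, adjusted p = 0.0044) was called anteriorly but not with the trend removed (0.50). The posterior adjusted p was 0.0514. Elavl3 ranged from 2.01 to 8.20 CPM and Elavl4 from 1.98 to 10.9 CPM over the 12 libraries, neither called.

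L1cam, an adhesion molecule of growing axons, had 10.7, 6.78 and 10.6 CPM in anterior tamoxifen libraries and 8.08, 7.13 and 6.37 CPM in anterior controls. Posteriorly it had 12.1, 10.2 and 11.3 CPM after tamoxifen, against 8.35, 7.50 and 7.11 CPM in controls. Only the posterior groups were apart. The posterior log2 fold change was 0.55 (SE 0.16, adjusted p = 0.0185; trend-removed 0.44, called), with an adjusted p of 0.078 to 0.087 without control library 3 or tamoxifen library 1. Nrcam, a related adhesion molecule, ranged from 1.77 to 3.57 CPM and was called as lower anteriorly with the trend removed (-0.75), though not as counted.

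Ntrk2 encodes TrkB, the receptor of brain-derived neurotrophic factor, and is known in non-neuronal tissue too. It had 51.5, 46.0 and 56.0 CPM in anterior tamoxifen libraries, against 40.2, 41.3 and 48.1 CPM in anterior controls. Posteriorly Ntrk2 had 36.8, 36.4 and 33.9 CPM after tamoxifen, against 26.9, 22.3 and 22.0 CPM in controls. The anterior groups overlapped and the posterior ones did not. The anterior log2 fold change of 0.24 (SE 0.10, adjusted p = 0.0493) turned to -0.34, not called, with the trend removed, and its call was lost when any of 9 of the 12 libraries was left out (adjusted p 0.050 to 0.20). The posterior value was 0.59 (SE 0.10, adjusted p = 0.000907), and trend-removed 0.22, not called. Ntrk3, the receptor of neurotrophin 3, ranged from 9.46 to 15.7 CPM and was not called as counted in either part. Its anterior log2 fold change of 0.26 became -0.57 and was called with the trend removed, on a longest transcript of 19703 bases.

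Rbfox3, the splicing factor known as the mature neuron antigen NeuN, fell in posterior palate. It had 1.27, 1.45 and 1.36 CPM in posterior tamoxifen libraries, against 2.48, 2.67 and 2.49 CPM in posterior controls. Posterior Rbfox3 changed by -0.91 on the log2 scale (SE 0.25, adjusted p = 0.0141), and by -0.72, still called, with the trend removed. Anteriorly Rbfox3 had 4.85, 5.04 and 6.14 CPM after tamoxifen and 3.54, 4.67 and 7.91 CPM in controls, with the controls on either side of the tamoxifen libraries. It was the only neuronal gene called as lower after tamoxifen in the counts as deposited.

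The general neuronal markers were not called. Tubb3 had 34.7, 21.1 and 39.7 CPM in anterior tamoxifen libraries and 28.4, 41.0 and 45.7 CPM in anterior controls. Posteriorly Tubb3 had 40.4, 26.1 and 24.5 CPM after tamoxifen and 29.3, 25.5 and 31.9 CPM in controls. Stmn2, a microtubule regulator of axon growth, had 10.4, 4.77 and 15.6 CPM in anterior tamoxifen libraries and 7.68, 12.1 and 8.52 CPM in anterior controls. In posterior palate Stmn2 had 15.9, 9.78 and 9.37 CPM after tamoxifen and 10.1, 10.1 and 11.7 CPM in controls. The groups of both genes overlapped in both parts, with a wider range among tamoxifen libraries than among controls. Anterior tamoxifen library 2 was the lowest of its group in 18 of 25 neuronal genes, and posterior tamoxifen library 1 the highest of its group in 22 of 25. The summed neuronal level was 297.4, 244.6 and 319.4 CPM in anterior tamoxifen libraries and 232.7, 258.8 and 263.4 CPM in anterior controls. Posteriorly it was 396.9, 336.9 and 327.5 CPM after tamoxifen and 306.9, 294.8 and 314 CPM in controls.

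**Figure D2:**
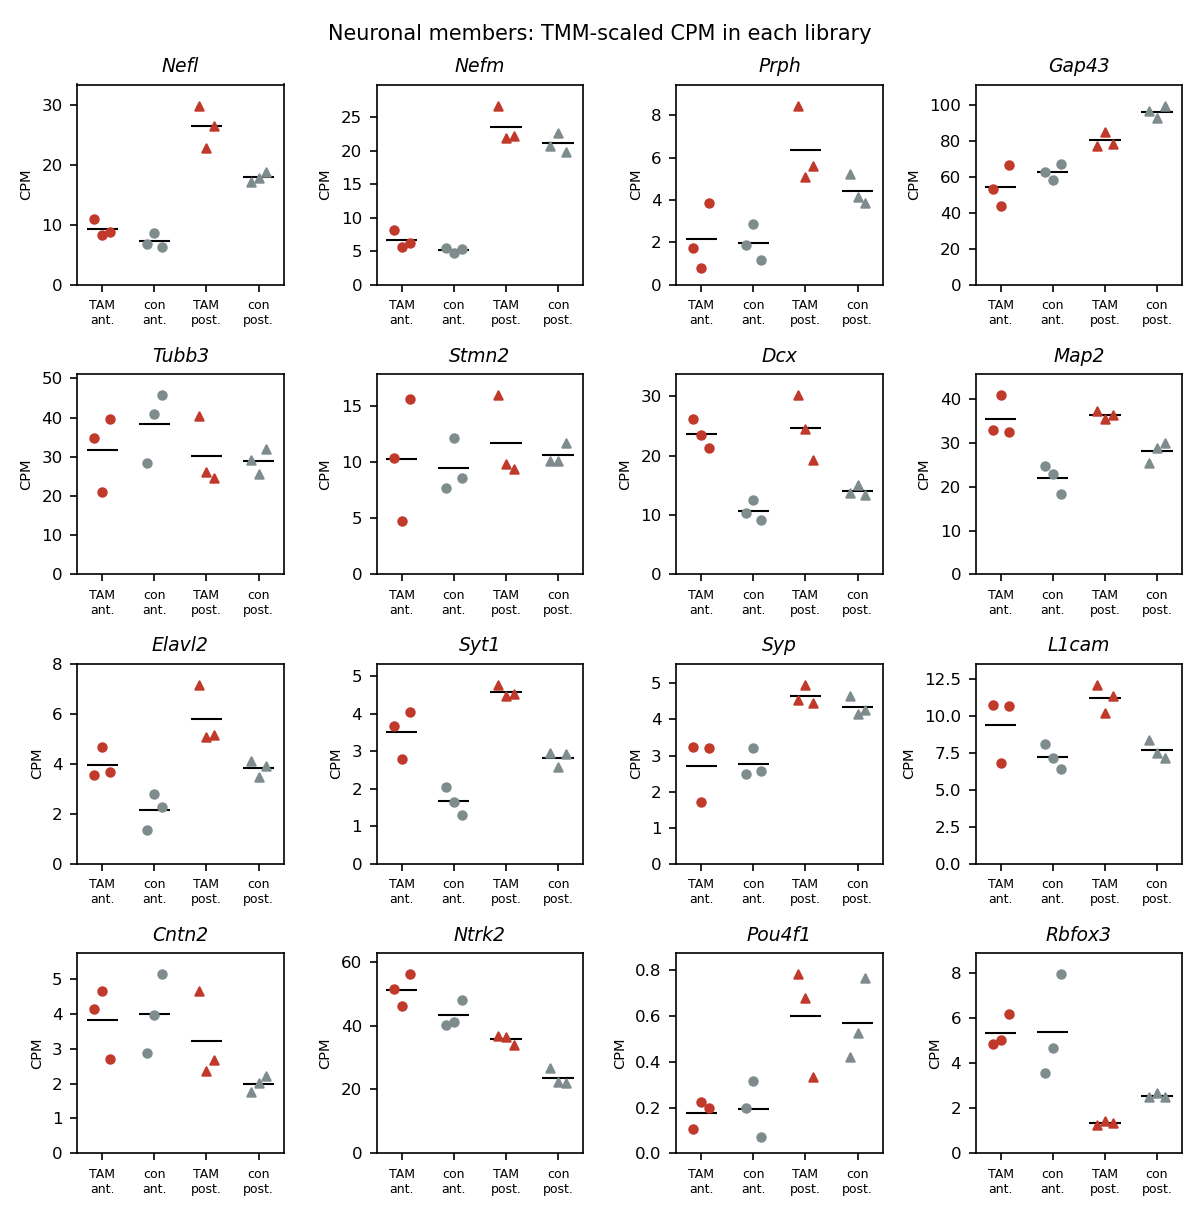
TMM-scaled CPM of neuronal genes in each of the 12 libraries; red marks tamoxifen and grey controls, circles anterior and triangles posterior palate, and the line is the mean of 3 libraries. Dcx, Map2 and Syt1 separate tamoxifen from controls in both parts, Nefl and Nefm separate posterior from anterior palate, and Tubb3 and Stmn2 overlap throughout.

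**Figure D3:**
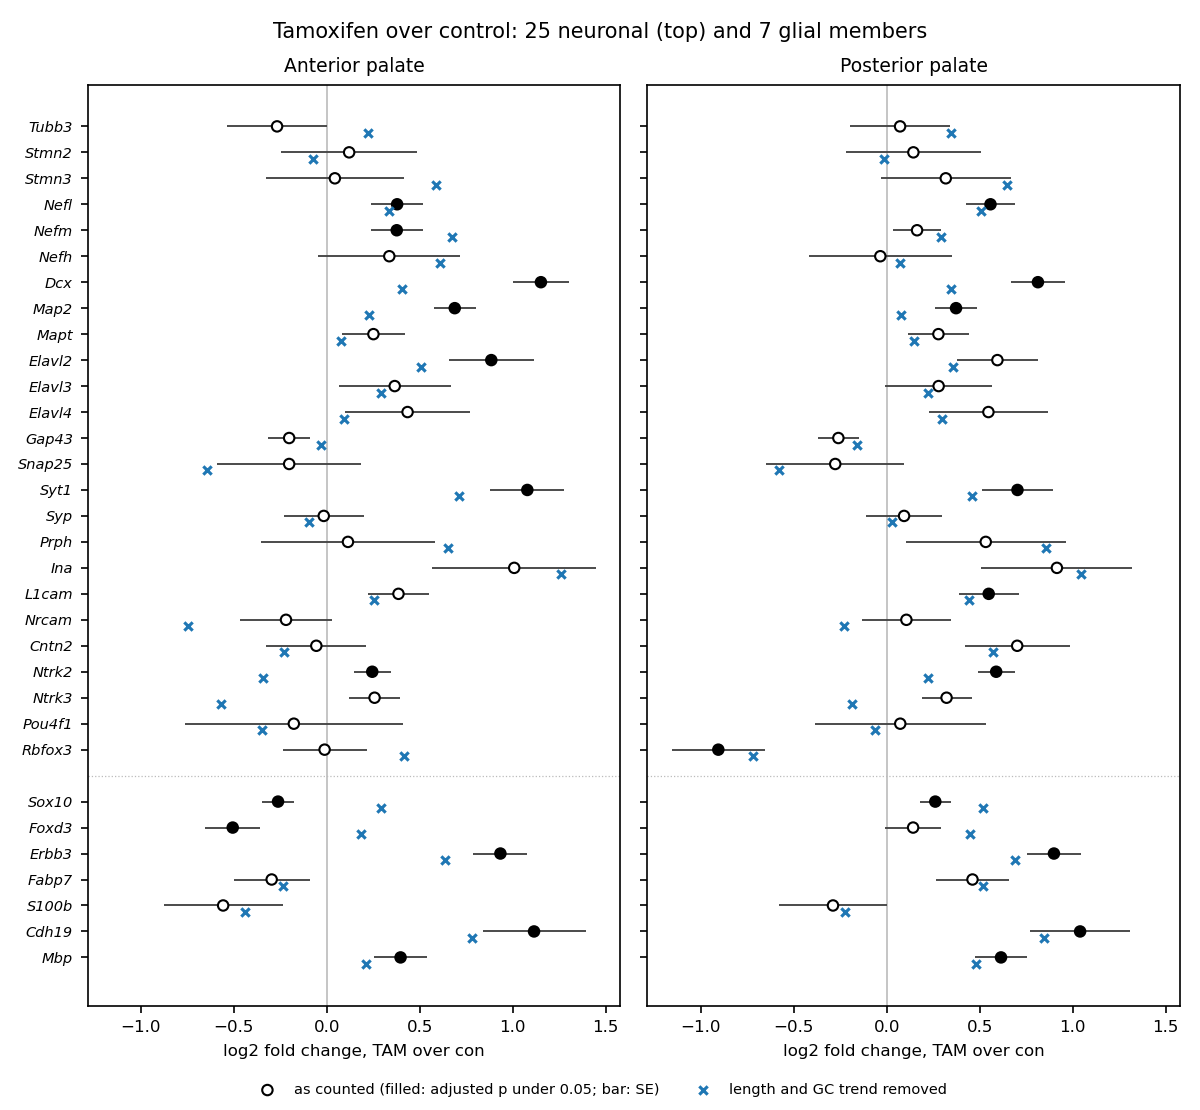
Log2 fold change of tamoxifen over control for each of the 25 neuronal genes (top) and 7 glial genes (bottom) in anterior and posterior palate; circles are the values as counted with their SE, filled where the adjusted p is under 0.05, and crosses the values with the length and GC trend removed. The crosses of Dcx, Map2, Ntrk2 and Ntrk3 lie left of their circles, and those of Sox10 and Foxd3 lie right of theirs.

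The difference between the tamoxifen effects in the parts was tested directly as an interaction. edgeR called 0 of 32 nerve genes, and 0% of the 15958 genes tested. At an unadjusted p under 0.05 there were 5 nerve genes (Sox10, Foxd3, Fabp7, Rbfox3 and Ntrk2) and 2110 genes over all, which is 13.2%. DESeq2 called 183 genes over all and 1 nerve gene, Sox10 (-0.51, adjusted p = 0.013), while limma-voom called 0. The anterior effect minus the posterior effect on Sox10 was -0.52 on the log2 scale (SE 0.12, adjusted p = 0.183). It shrank to -0.23 (adjusted p = 0.531) with the trend removed. No difference between the parts in the response of the neuronal or glial genes was thus called by edgeR, which does not show that the responses were alike.

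Position along the shelf separated some nerve genes more widely than tamoxifen did. The comparisons by region use the same 12 libraries as those of tamoxifen. Among tamoxifen libraries 2 of 25 neuronal genes were higher and 6 lower in anterior than in posterior palate, where 7.60% of all genes were higher and 10.2% lower (17.8% called in all). In controls 3 were higher and 8 lower anteriorly, where 10.2% of all genes were higher and 13.1% lower (23.3% called in all). The median neuronal log2 fold change was -0.40 after tamoxifen and -0.48 in controls, beside 0.02 over all genes in each. Of 7 glial genes 0 were higher and 4 lower anteriorly after tamoxifen, and 0 were higher and 2 lower in controls.

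With the length and GC trend removed the region counts moved little. After tamoxifen 2 neuronal genes were higher and 7 lower anteriorly and 3 glial genes lower, where 13.9% of all genes were higher and 11.0% lower (24.9% in all). In controls 3 neuronal genes were higher and 7 lower and 2 glial genes lower, where 14.4% of all genes were higher and 12.5% lower (27.0% in all). Fold changes by region had a Spearman correlation with length of 0 after tamoxifen and -0.3 in controls.

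Nefl and Nefm, whose levels are given above, were several-fold lower in anterior palate. Nefm was lower by a log2 fold change of -1.81 after tamoxifen (SE 0.13, adjusted p = 3.63e-08) and of -2.03 in controls (SE 0.14, adjusted p = 1.93e-08). For Nefl the values were -1.49 (SE 0.14, adjusted p = 4.83e-07) and -1.31 (SE 0.14, adjusted p = 3.2e-06). The lowest posterior library of either gene was above its highest anterior library. Trend-removed values stayed close, at -1.69 and -2.06 for Nefm and -1.46 and -1.28 for Nefl.

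Gap43 had 53.6, 43.7 and 66.7 CPM in anterior and 77.4, 84.9 and 78.6 CPM in posterior tamoxifen libraries. In controls Gap43 had 62.8, 58.5 and 67.5 CPM anteriorly and 96.5, 92.5 and 99.5 CPM posteriorly. Anterior levels were below posterior ones without overlap in both conditions, by log2 fold changes of -0.55 after tamoxifen (SE 0.11, adjusted p = 0.00186) and -0.61 in controls (SE 0.11, adjusted p = 0.000755). Each posterior tamoxifen library was also below each posterior control, though Gap43 was not called for tamoxifen.

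Syp, whose levels are given above, was lower anteriorly by -0.77 after tamoxifen (adjusted p = 0.0159) and by -0.66 in controls (adjusted p = 0.0338). The tamoxifen call was lost without posterior tamoxifen library 2 (adjusted p = 0.061). The control call was lost without any of 5 of the 6 control libraries, that is anterior 1 or 3 or posterior 1, 2 or 3 (adjusted p 0.069 to 0.11).

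Prph and Pou4f1 were low and lay in the same direction. Prph, peripherin, an intermediate filament of peripheral neurons, had 1.74, 0.806 and 3.88 CPM in anterior and 8.44, 5.10 and 5.60 CPM in posterior tamoxifen libraries. In controls Prph had 1.88, 2.88 and 1.15 CPM anteriorly and 5.24, 4.13 and 3.88 CPM posteriorly. No anterior library reached a posterior one of its condition. It was called after tamoxifen (-1.58, SE 0.45, adjusted p = 0.0275), and its value in controls was -1.17 (adjusted p = 0.0896). The tamoxifen call was lost without anterior library 1 or posterior library 1 or 3 (adjusted p 0.054 to 0.12).

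Pou4f1 was close to the detection limit, with 0.108, 0.224 and 0.200 CPM in anterior and 0.781, 0.680 and 0.335 CPM in posterior tamoxifen libraries. In controls it had 0.198, 0.314 and 0.0703 CPM anteriorly and 0.421, 0.525 and 0.767 CPM posteriorly. All anterior libraries were below all posterior ones. The values were -1.80 after tamoxifen (SE 0.52, adjusted p = 0.0214) and -1.55 in controls (SE 0.53, adjusted p = 0.0427) on the log2 scale. Leaving out anterior tamoxifen 1 or posterior tamoxifen 1 or 2 ended the tamoxifen call (adjusted p 0.075 to 0.11). Leaving out anterior control 1 or 3, posterior control 2 or 3 or posterior tamoxifen 2 ended the control call (adjusted p 0.057 to 0.17).

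Map2, Elavl2 and Syt1 were also lower anteriorly in the test on controls, by -0.35 (adjusted p = 0.0334), -0.84 (adjusted p = 0.0146) and -0.76 (adjusted p = 0.0113). After tamoxifen their values were -0.03, -0.55 and -0.39, none called. Map2 was not called with the trend removed, nor without anterior control 3 or posterior control 2 or 3 (adjusted p 0.10 to 0.16), and Syt1 not without anterior control 3 (adjusted p = 0.060). Since the interaction was not called for any of them, the region effects are not shown to differ between the conditions.

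Against that direction, Ntrk2 and Rbfox3 were higher anteriorly in both conditions. Ntrk2 had a log2 fold change of 0.52 after tamoxifen (SE 0.10, adjusted p = 0.00104) and 0.86 in controls (SE 0.10, adjusted p = 7.71e-06). Rbfox3 was 1.97 after tamoxifen (SE 0.25, adjusted p = 1.58e-05), a 3.92-fold difference, and 1.08 in controls (SE 0.24, adjusted p = 0.00306). Cntn2, an axonal adhesion molecule, had 4.14, 4.66 and 2.71 CPM in anterior and 4.65, 2.36 and 2.68 CPM in posterior tamoxifen libraries, which overlapped. In controls Cntn2 had 2.87, 3.97 and 5.13 CPM anteriorly, against 1.75, 2.01 and 2.22 CPM posteriorly (1.004, SE 0.28, adjusted p = 0.016). The control call was lost without anterior control 3 or posterior control 1 or 2 (adjusted p 0.053 to 0.097).

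Among glial genes, Erbb3 was lower anteriorly after tamoxifen (-0.57, SE 0.14, adjusted p = 0.00941) and in controls (-0.60, SE 0.15, adjusted p = 0.00676). The first value had an adjusted p of 0.051 without anterior tamoxifen library 2. S100b was lower by -1.39 after tamoxifen (SE 0.31, adjusted p = 0.0039) and by -1.12 in controls (SE 0.30, adjusted p = 0.0131). Its control call was lost without anterior control 2 or posterior control 3 (adjusted p 0.052 to 0.053). Fabp7 (-0.85, SE 0.20, adjusted p = 0.00603) and Sox10 (-0.29, SE 0.08, adjusted p = 0.0246) were called after tamoxifen, and in controls their values were -0.09 and 0.24, neither called. Sox10 was not called with the trend removed (-0.11), nor without anterior tamoxifen 1 or 2 or posterior tamoxifen 2 or 3 (adjusted p 0.058 to 0.081).

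**Figure D4:**
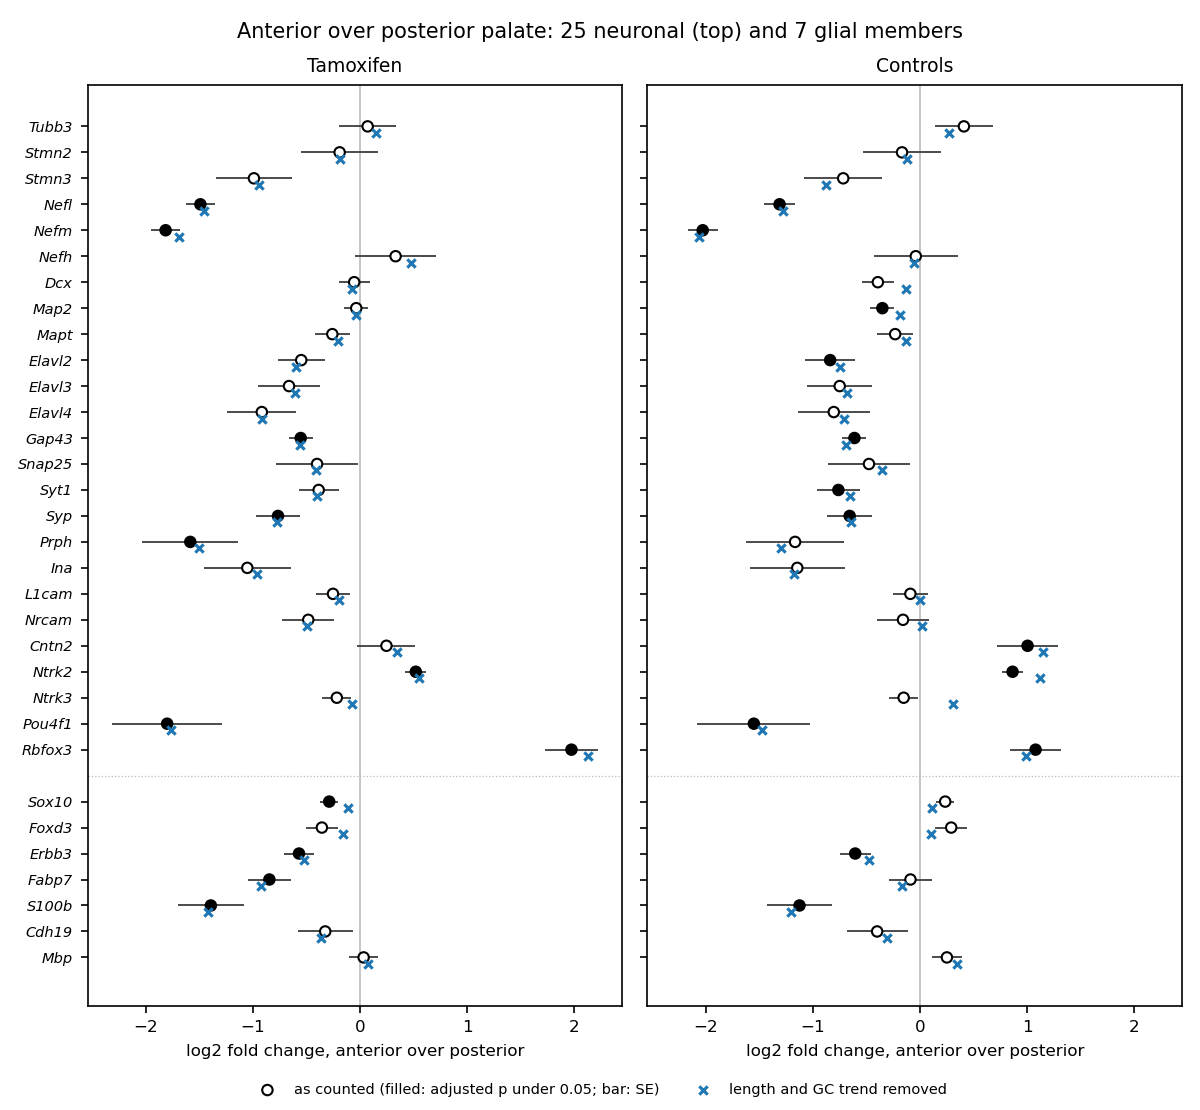
Log2 fold change of anterior over posterior palate for each of the 25 neuronal genes (top) and 7 glial genes (bottom) after tamoxifen and in controls; circles are the values as counted with their SE, filled where the adjusted p is under 0.05, and crosses the values with the length and GC trend removed. Nefl, Nefm and Gap43 lie left of 0 in both conditions and Ntrk2 and Rbfox3 right of 0.

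The other neuronal genes were not called in any of the 5 comparisons as counted. Stmn3 ranged from 0.962 to 4.81 CPM, the microtubule protein tau, Mapt, from 3.89 to 7.68 CPM, and the intermediate filament gene Ina from 0.609 to 6.35 CPM. Ina shares 456 exonic bases with Nt5c2 on the opposite strand, and L1cam 100 bases with Arhgap4 on the same strand, in the GENCODE annotation.

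Muscle genes differed by region far more than the nerve genes did, with a median log2 fold change of -6.05 after tamoxifen and -5.32 in controls. The summed level of 15 skeletal muscle genes was 12.09 to 22.18 CPM in anterior tamoxifen libraries, 1048 to 1436 CPM in posterior tamoxifen libraries, 17.52 to 40.45 CPM in anterior controls and 852.2 to 977.4 CPM in posterior controls. All 15 were called as lower anteriorly in both conditions. After tamoxifen 0 rose and 6 fell anteriorly, and 3 rose and 0 fell posteriorly. Of 10 epithelial genes 8 were higher and 0 lower anteriorly in either condition, and after tamoxifen 3 rose and 1 fell anteriorly and 4 rose and 0 fell posteriorly. The counts under tamoxifen stand beside 25.6% and 24.0% of all genes anteriorly and 17.3% and 11.7% posteriorly. Those by region stand beside 7.60% higher and 10.2% lower after tamoxifen, and 10.2% and 13.1% in controls. The part of muscle and epithelium in the nerve results was not tested.

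Genes of sensory neurons outside the nerve set split by direction. Of the 11 tested, 2 rose and 3 fell anteriorly after tamoxifen, beside 25.6% and 24.0% of all genes. Posteriorly 2 rose and 1 fell, beside 17.3% and 11.7%, so these counts were near the background. With the trend removed 1 rose and 1 fell in each part, where 16.1% and 7.78% of all genes rose and 16.5% and 10.2% fell. Piezo2, a mechanically gated channel that mesenchyme can express too, rose in both parts as counted, by 1.04 and 0.64 on the log2 scale. Its longest transcript has 10724 bases. Runx3, a factor of proprioceptive neurons that is also active in other tissues, fell in both parts (-0.62 and -0.63). By region, 1 was higher and 3 lower anteriorly after tamoxifen, beside 7.60% and 10.2% of all genes. In controls 2 were higher and 3 lower, beside 10.2% and 13.1%. Runx3 was lower (-1.22 and -1.24) and Isl1 higher (1.34 and 1.64) anteriorly in both conditions.

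Of 13 autonomic neuron genes tested, 3 rose and 0 fell anteriorly after tamoxifen, and 1 rose and 0 fell posteriorly, with medians of 0.57 and 0.54. The shares of all genes that rose were 25.6% and 17.3%, so the number that rose as counted was not above the background in either part. With the trend removed 4 rose and 0 fell anteriorly, where 16.1% of all genes rose and 16.5% fell. Posteriorly 0 were called with the trend removed, where 18.0% of all genes were. Slc5a7, the choline transporter of cholinergic neurons, averaged 15.7 ± 2.16 CPM after tamoxifen and 7.71 ± 1.24 CPM in controls anteriorly (SD, n = 3 each). Posteriorly Slc5a7 averaged 8.47 ± 0.881 CPM after tamoxifen and 5.25 ± 1.25 CPM in controls (SD, n = 3 each). Its log2 fold changes were 1.02 (adjusted p = 0.000125) and 0.69 (adjusted p = 0.00771), trend-removed 0.52, called, and 0.40, not called. Of the same list, Chat had 0 to 8 counts. Slc18a3, another cholinergic gene and named after its values were seen, had 0.0895 to 0.808 CPM over all libraries. Which cells express Slc5a7 here was not tested. The acetylcholine receptor subunit Chrna3 (1.79, adjusted p = 0.00262) and the neuropeptide Vip (1.504, adjusted p = 0.00696) rose anteriorly and stayed called with the trend removed. By region 2 autonomic genes were higher and 1 lower anteriorly after tamoxifen, beside 7.60% and 10.2% of all genes. In controls 2 were higher and 3 lower, beside 10.2% and 13.1%.

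The ligands are growth factors that guide and sustain nerves. Of 12 ligands, 1 rose and 4 fell anteriorly after tamoxifen, beside 25.6% and 24.0% of all genes, and 0 rose and 2 fell posteriorly, beside 17.3% and 11.7%. With the trend removed 2 rose and 0 fell anteriorly, beside 16.1% and 16.5% of all genes, so the direction of the anterior calls turned. Posteriorly 0 rose and 1 fell, beside 7.78% and 10.2%. The neuregulin Nrg2, a ligand of ERBB3, averaged 3.95 ± 0.498 CPM after tamoxifen and 7.19 ± 0.63 CPM in controls anteriorly (SD, n = 3 each). Posteriorly Nrg2 averaged 4.08 ± 0.765 CPM after tamoxifen and 5.80 ± 0.981 CPM in controls (SD, n = 3 each). It was called in both parts (-0.86 and -0.51), but in neither with the trend removed (-0.28 and -0.26). Nrg3 rose anteriorly (0.89, trend-removed 0.76, both called). Neurturin, Nrtn, fell anteriorly (-1.09) and was not called with the trend removed (-0.12). Nrg1, the main axonal neuregulin, was chosen after its values were seen, and with 0.701 to 2.28 CPM over all libraries it was not called (0.39 and 0.64).

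By region 4 of 12 ligands were higher and 1 lower anteriorly after tamoxifen, beside 7.60% and 10.2% of all genes. In controls 6 were higher and 1 lower, beside 10.2% and 13.1%. Gdnf averaged 3.58 ± 0.051 CPM in anterior and 1.75 ± 0.495 CPM in posterior tamoxifen libraries, and 3.48 ± 0.635 CPM in anterior and 1.22 ± 0.0525 CPM in posterior controls (SD, n = 3 each). Bdnf, the ligand of TrkB, was lower anteriorly, by -0.77 after tamoxifen (adjusted p = 0.00201) and -1.004 in controls (adjusted p = 0.000213), whereas its receptor gene Ntrk2 was higher there.

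Of 10 receptor genes, 3 rose and 3 fell anteriorly after tamoxifen, near the 25.6% and 24.0% of all genes. Posteriorly 5 rose and 0 fell, beside 17.3% and 11.7% of all genes. With the trend removed 3 rose and 1 fell anteriorly, beside 16.1% and 16.5%, and 2 rose and 0 fell posteriorly, beside 7.78% and 10.2%. Egfr averaged 63.6 ± 1.504 CPM after tamoxifen and 30.7 ± 3.42 CPM in controls anteriorly, and 79.0 ± 6.59 CPM after tamoxifen and 50.2 ± 5.02 CPM in controls posteriorly (SD, n = 3 each). Erbb2, the co-receptor of ERBB3, averaged 188 ± 23.2 CPM after tamoxifen and 236 ± 10.6 CPM in controls anteriorly (SD, n = 3 each). It fell anteriorly (-0.33, adjusted p = 0.00623; trend-removed -0.25, called) and was not called posteriorly (-0.09, adjusted p = 0.455); it was chosen after its values were seen. Gfra1, which binds GDNF, rose posteriorly by 0.79 (trend-removed 0.64, called). In each condition 1 receptor gene was higher and 5 lower anteriorly by region. The shares of all genes were 7.60% higher and 10.2% lower after tamoxifen, and 10.2% and 13.1% in controls.

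A list of 32 further synaptic and axonal genes had calls in both directions. Anteriorly 8 rose and 10 fell after tamoxifen, and posteriorly 6 rose and 4 fell, with medians of -0.05 and 0.04. These counts were near the shares of all genes, 25.6% and 24.0% anteriorly and 17.3% and 11.7% posteriorly. With the trend removed 7 rose and 7 fell anteriorly, beside 16.1% and 16.5% of all genes. Posteriorly 3 rose and 3 fell, beside 7.78% and 10.2%. Stx1a, syntaxin of the presynaptic membrane, averaged 16.7 ± 1.81 CPM after tamoxifen and 34.1 ± 0.542 CPM in controls anteriorly, and 22.2 ± 0.544 CPM after tamoxifen and 32.3 ± 3.14 CPM in controls posteriorly (SD, n = 3 each). The axonal motor Kif5c rose in anterior palate by 0.96 and Kif1a in both by 0.48 and 0.51, on the log2 scale. By region 1 was higher and 10 lower anteriorly after tamoxifen, beside 7.60% and 10.2% of all genes. In controls 1 was higher and 9 lower, beside 10.2% and 13.1%. The tubulin Tubb2b (-0.54 and -0.55) and Nsg2 (-1.03 and -1.07) were among those lower.

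Other lineages in or near the dissection were counted as well, where 49.7% of all genes were called anteriorly and 29.0% posteriorly after tamoxifen. Olfactory and GnRH neuron genes had 0 higher and 2 lower anteriorly and 1 higher and 1 lower posteriorly of 6 tested. Central nervous system progenitor genes had 0 of 8 called anteriorly and 1 lower posteriorly, Pax6. Of these 8 genes 4 were higher and 2 lower anteriorly by region in each condition, with Pax6, Olig1 and Olig2 among those higher. Olfactory genes by region gave 1 higher and 2 lower after tamoxifen and 1 higher and 1 lower in controls. The region shares of all genes were 7.60% higher and 10.2% lower after tamoxifen, and 10.2% and 13.1% in controls. Of 4 pigment cell precursor genes tested 1 rose in each part, Mitf anteriorly and Kit posteriorly. Endothelial genes had 4 higher and 3 lower anteriorly and 4 higher and 1 lower posteriorly of 8, and macrophage genes 4 higher and 1 lower anteriorly and 3 higher and 0 lower posteriorly of 8. With the trend removed the endothelial counts were 3 higher and 1 lower anteriorly and 3 higher and 0 lower posteriorly. The macrophage counts were then 4 and 0 anteriorly and 1 and 0 posteriorly. The trend-removed shares of all genes were 16.1% higher and 16.5% lower anteriorly, and 7.78% and 10.2% posteriorly. Genes of palatal mesenchyme had 3 higher and 4 lower anteriorly and 2 higher and 2 lower posteriorly of 12 tested, with a summed level of 8492 to 17770 CPM. How much of each nerve result comes with these lineages was not tested.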

How the data were processed

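The files the authors deposited hold raw counts per gene symbol for 12 libraries of total RNA. Per the submitters' processing notes HISAT2, StringTie and build mm9 were used. The sources used here give neither their versions nor the counting program or its strand setting. Of counts from 1 to 100, 57.1 to 60.1% were even, so mates of a pair may have been counted separately, which would inflate apparent depth. The labels give 3 samples per group without saying whether each is a separate animal, so the p-values reflect only the spread between samples of a group, which may be technical.

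From these counts, edgeR 4.0.16 in R 4.3.3 (filterByExpr, TMM scaling, robust quasi-likelihood fit, 1 mean per group, 8 residual degrees of freedom) gave 5 comparisons with Benjamini-Hochberg adjustment over 15958 genes. Errors are SD over 3 libraries or the SE of a log2 fold change. The fit was tested on simulated data. Replicates differed beyond counting noise (chi-square per degree of freedom 10.3 to 50.2).

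The length and GC trend was a natural spline of 4 degrees of freedom for each, fitted per library to genes above a mean log2 CPM of 1 and entered as an offset. Length and GC came from the longest GENCODE M21 transcript, matched for 23348 symbols directly and 651 by an older symbol. Other alternatives were DESeq2 1.42.0, limma 3.58.1 with voom, upper quartile scaling, no filter, the compared libraries alone, the replicate block, counts divided by 2, a threshold of 0.01 and leaving out each library.

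The nerve genes and all further lists were chosen with earlier results of these data known. Values in every library are given for nerve genes called in at least 1 comparison and for Sox10, Erbb3, Foxd3, Tubb3, Stmn2, Prph and Pou4f1. Of each further list, up to 4 called genes per comparison with the smallest adjusted p, and its highest gene, could be named. Promoters and strands are from RefSeq, build GRCm38.p6, and no gene coordinates of the authors' build were used. A few genes of the further lists are not reported here.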

Additional observations from a re-analysis of the deposited data

Results flagged for a closer look

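The effect of tamoxifen on Sox10 differed in direction between the parts of the palate, by -0.52 on the log2 scale (anterior effect minus posterior effect). All 3 anterior tamoxifen libraries, at 22.9 to 25.1 CPM, were below all 3 anterior controls, at 27.6 to 29.5 CPM. All 3 posterior tamoxifen libraries, at 28.5 to 29.2 CPM, were above all 3 posterior controls, at 22.3 to 26.9 CPM. The test of the difference itself gave an adjusted p of 0.183 in edgeR and 0.013 in DESeq2. With the length and GC trend removed, Sox10 was called as higher in both parts (0.29 and 0.52) and the difference was -0.23. The cause was not tested.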

How the results depend on the processing

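Counts of nerve genes called are given with those from the fit above first. Anterior neuronal genes under tamoxifen were 7, and 4 with upper quartile scaling, with the compared libraries alone and at a threshold of 0.01. Anterior glial genes were 5, and 3 with the length and GC trend removed, with or without the replicate block, and 2 at 0.01. Posterior neuronal genes were 7, and 3 with the trend removed, with or without the block, 11 with the compared libraries alone and 3 at 0.01. The glial interaction count was 0, and 1 with DESeq2. After tamoxifen by region, neuronal genes were 8, and 5 at 0.01. In controls by region, neuronal genes were 11, and 5 at 0.01, and glial genes 2, and 1 at 0.01. The cause of these shifts was not tested, except that a threshold of 0.01 is stricter by construction and the compared libraries alone are fewer samples.

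Anterior tamoxifen effects that changed sign with the trend removed, without and with the replicate block, were those of Ntrk2 (-0.34 and -0.34), Ntrk3 (-0.57 and -0.58), Sox10 (0.29 and 0.30) and Foxd3 (0.18 and 0.18). Leaving out 1 library gave 4 to 10 anterior and 5 to 11 posterior neuronal genes under tamoxifen, and 3 to 5 anterior and 2 to 4 posterior glial genes. By region it gave 6 to 10 neuronal and 2 to 4 glial genes after tamoxifen, 6 to 14 neuronal and 1 to 3 glial genes in controls, and 0 to 0 for the interaction. Libraries that moved a count by over 1.5 times were anterior tamoxifen 1 (4 neuronal, 3 glial anteriorly), anterior control 3 (3 glial anteriorly, 6 neuronal by region in controls), anterior tamoxifen 2 (11 neuronal posteriorly, 2 glial by region after tamoxifen), posterior tamoxifen 1 (2 glial posteriorly), posterior control 2 (7 neuronal by region in controls), and anterior control 2 or posterior control 3 (1 glial by region in controls).

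With the replicate number as a block, counts under tamoxifen were 7 neuronal and 5 glial anteriorly, 7 and 4 posteriorly, 0 and 0 for the interaction, and by region 8 and 4 after tamoxifen and 12 and 2 in controls. The block ended the calls of Ntrk2 anteriorly (adjusted p = 0.053) and Prph by region after tamoxifen (adjusted p = 0.068). Of 18 pairs of same-numbered libraries 2 correlated above 0.1 (range -0.06 to 0.15). Both joined anterior and posterior tamoxifen libraries, those numbered 1 (0.15) and 3 (0.14). Differently numbered libraries were not compared, so this check cannot decide whether the numbers pair the samples. Low counts limit Pou4f1, Nefh, Snap25 and S100b.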
